A study of Mus musculus with 4 samples.

Results

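The neurexophilins, neurexins and neuroligins are proteins that meet at the synapse. The genes described here were 4 neurexophilins (Nxph1, Nxph2, Nxph3 and Nxph4), 2 neurexins (Nrxn2 and Nrxn3) and 3 neuroligins (Nlgn1, Nlgn2 and Nlgn3). They make 9 of the 21827 genes measured and were taken by symbol from the expression tables, where all 9 had a successful quantification in every library. The group was selected on a measured value, the fall of Nxph1 between the Cd73N libraries compared here, which was the largest outside chromosome Y. That value therefore describes how the group was chosen and is not a finding.

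mRNA sequencing libraries were made from mouse retina on an slc:ICR background at postnatal day 12, sorted by flow cytometry on the surface enzyme Cd73. Cells with it (Cd73P) are called photoreceptors by the study and are mainly rods, and cells without it (Cd73N) are the remaining retinal cells. Cone marker genes had most of their summed level in Cd73N, as given below. The genotypes were wildtype (WT), for which normal littermates were used, and Ezh2-cKO, in which floxed Ezh2 is deleted by a Dkk3-Cre transgene active in retinal progenitor cells. Ezh2 encodes the histone H3 lysine methyltransferase of the Polycomb complex PRC2. The number of retinas pooled and their sex were not found in the sources used here. This gave 4 libraries with 1 library for each fraction and genotype, and therefore no replicate check and no test of any difference.

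Neurexins are presynaptic adhesion proteins that cross the synaptic cleft to bind neuroligins on the postsynaptic cell. Neurexophilins are small secreted glycoproteins, some of which bind tightly to the extracellular part of alpha-neurexins. Among the neuroligins, Nlgn1 is found mainly at excitatory synapses and Nlgn2 at inhibitory synapses, whereas Nlgn3 occurs at both. In the retina, bipolar and amacrine cells form the synapses of the inner plexiform layer, and rods and cones contact bipolar and horizontal cells in the outer plexiform layer.

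The 4 neurexophilin genes lie on different mouse chromosomes (genome build mm9). Nxph1 was listed on chromosome 6 at 8900019 to 9198578, Nxph2 on chromosome 2 at 23176766 to 23257493, Nxph3 on chromosome 11 at 95371160 to 95375879 and Nxph4 on chromosome 10 at 126962529 to 126971615. Polycomb complexes are known to gather at promoters rich in CpG dinucleotides, so the 250 bases before the outermost annotated start of Nxph1, Nxph2 and Nxph3 are shown from the mm9 genome, 5′ to 3′ on the gene's own strand, with each CpG in capitals. None of these windows overlapped an annotated exon. The outermost start of Nxph1, at 8898431, lies upstream of its listed start at 8900019. Its window is therefore not next to the start of the gene as quantified. They are chr6:8898181-8898430 on the plus strand for Nxph1, chr2:23176516-23176765 on the plus strand for Nxph2 and chr11:95375885-95376134 on the minus strand for Nxph3.
Nxph1: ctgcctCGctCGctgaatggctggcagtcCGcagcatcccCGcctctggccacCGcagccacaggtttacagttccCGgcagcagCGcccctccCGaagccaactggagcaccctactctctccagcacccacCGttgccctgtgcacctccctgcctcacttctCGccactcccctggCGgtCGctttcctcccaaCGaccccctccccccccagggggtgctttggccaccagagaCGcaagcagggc
Nxph2: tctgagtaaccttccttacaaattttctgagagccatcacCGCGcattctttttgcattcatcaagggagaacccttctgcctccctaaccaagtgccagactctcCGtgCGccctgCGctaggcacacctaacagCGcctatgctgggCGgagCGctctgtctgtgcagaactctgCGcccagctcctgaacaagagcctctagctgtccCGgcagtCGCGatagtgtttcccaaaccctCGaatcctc
Nxph3: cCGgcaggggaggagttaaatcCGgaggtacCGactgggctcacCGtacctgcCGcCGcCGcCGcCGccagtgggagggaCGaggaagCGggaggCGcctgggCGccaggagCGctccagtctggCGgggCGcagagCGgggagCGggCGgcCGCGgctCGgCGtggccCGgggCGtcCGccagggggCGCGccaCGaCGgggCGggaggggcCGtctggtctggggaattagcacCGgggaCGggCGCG
The windows held 14 CpG in Nxph1, 13 in Nxph2 and 36 in Nxph3, against a median of 8 over 22375 such windows of protein-coding genes. Fewer CpG were found in 64.4% of windows than in that of Nxph1, in 61.7% for Nxph2 and in 97.0% for Nxph3. These counts describe sequence only, because no chromatin data were analysed here.

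The labels were checked before the genotypes were compared. Ezh2 was at 14.1 FPKM (a fragment number scaled to transcript length and to the mapped fragments of the library) in Cd73N WT and at 15.9 FPKM in Cd73N Ezh2-cKO, which goes against the label. In Cd73P it was at 5.38 and 3.45 FPKM. A gene-level FPKM counts reads of every exon and cannot show whether a floxed exon was lost, so the libraries are called by their label. Nt5e, which encodes Cd73, was at 0.61 to 0.84 FPKM in Cd73N and at 123 to 125 FPKM in Cd73P. The summed level of 4 genes on chromosome Y was 26.8 and 27.9 FPKM in the WT libraries and 0.72 and 0.50 FPKM in the Ezh2-cKO-labelled libraries, and Xist was higher in both of the latter. The sex of the pooled animals and the genotype therefore cannot be told apart in any genotype difference given here. Of the rod marker genes, 9 were compared between the fractions, and all 9 were higher in Cd73P in both genotypes.

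In Cd73N WT cells 8 of the 9 genes were found at more than 5 FPKM. Nrxn3 had the highest level at 50.5 ± 0.55 FPKM (SE of counting within the library), followed by Nlgn2 at 32.9 ± 0.56 FPKM. Nxph4 at 25.5 ± 0.71 FPKM and Nxph3 at 24.8 ± 0.62 FPKM did not differ by more than 2 counting SE. Nxph1 was at 19.5 ± 0.67 FPKM, Nrxn2 at 17.5 ± 0.32 FPKM, Nlgn1 at 9.36 ± 0.26 FPKM and Nlgn3 at 5.31 ± 0.27 FPKM. Each of these differed from the next by more than 2 counting SE, but the order of Nxph1 and Nrxn2 is not firm. The FPKM of Nxph1 lay above its own deposited bounds of 16.5 to 19.2, which overlap those of Nrxn2. Nxph2 was listed at 0.

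In Cd73P WT cells a different order was found. Nlgn2 had the highest level at 28.1 ± 0.50 FPKM, and Nxph4 at 12.4 ± 0.57 FPKM and Nrxn3 at 5.19 ± 0.15 FPKM were the only others above 1 FPKM. Nrxn2 was at 0.87 FPKM, Nxph3 at 0.59, Nlgn1 at 0.55, Nlgn3 at 0.28 and Nxph1 at 0.26 FPKM, while Nxph2 was again listed at 0. Nxph3 and Nlgn1 did not differ beyond 2 counting SE, nor did Nlgn3 and Nxph1. The genes above 10 FPKM in this library were thus Nlgn2 and Nxph4.

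**Figure D1:**
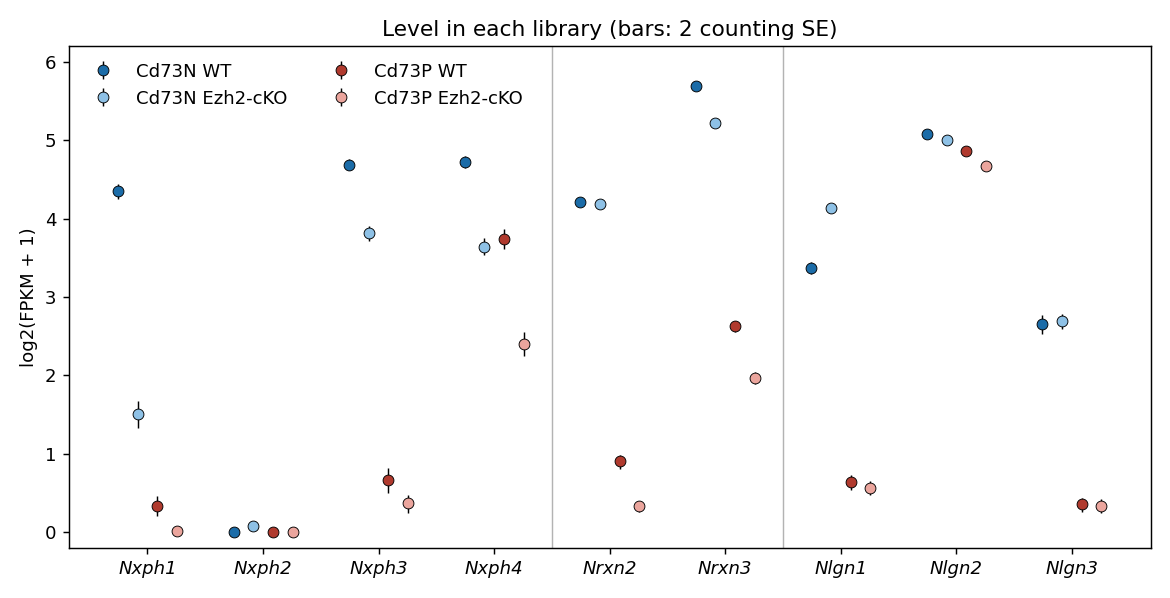
Level of each gene in each of the 4 libraries as log2(FPKM + 1), with bars of 2 counting SE on each side. Nlgn2 lies close together in all 4 libraries, between 24.4 and 32.9 FPKM, while the Cd73P points of Nxph1, Nxph3, Nrxn2, Nlgn1 and Nlgn3 all lie below 1 FPKM.

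The fractions were compared to see where these genes are expressed. On the scale of log2(FPKM + 1), which understates ratios of weakly expressed genes, 7 of the 9 genes were lower in Cd73P WT than in Cd73N WT past the 1.5-fold threshold used by the study, and 0 were higher. Of all 21700 genes compared, 27.9% were lower and 9.07% were higher. In the Ezh2-cKO-labelled libraries 7 were lower and 0 higher, where 29.1% of 21699 genes were lower and 8.4% higher. The median log2 difference of Cd73P minus Cd73N over the 9 genes was -2.74 in WT and -2.35 in the Ezh2-cKO-labelled libraries, and over all genes it was -0.050 and -0.090. Among genes with at least 1 FPKM in 1 of the 2 libraries, 5736 of 12486 were lower in WT. In the Ezh2-cKO-labelled libraries 5910 of 12972 were lower. The median over these genes was -0.47 and -0.46, and over the 8 genes of the group among them -2.90 and -2.80. In both genotypes Nxph1, Nxph3, Nrxn2, Nlgn1 and Nlgn3 passed this filter only through their Cd73N level. The group was also chosen on a fall of Nxph1 from its Cd73N WT level. The medians of the group are therefore fixed in part by filter and choice, and nothing is read from their distance to those of all genes. In sorted bulk cells, fewer cells of a type and less RNA per cell cannot be told apart. The genes within the threshold were Nxph2 and Nlgn2 in both genotypes.

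The Cd73P level as a share of the Cd73N level separated the genes into groups. In WT it was 1.34% for Nxph1 and 2.37% for Nxph3. It was 4.96% for Nrxn2, 5.25% for Nlgn3, 5.92% for Nlgn1 and 10.3% for Nrxn3. In contrast it was 48.7% for Nxph4 and 85.4% for Nlgn2, the latter turning to a higher level in Cd73P when libraries were scaled by their median ratio or FPKM sum. In the Ezh2-cKO-labelled libraries the share was 37.4% for Nxph4 and 78.7% for Nlgn2, and it was 8.01% or less for the others with a Cd73N level above 1 FPKM. The summed marker genes of other cell types gave a rough measure of how much Cd73N RNA was found in Cd73P. Such a sum can rest on 1 gene with a high Cd73P level. The Cd73P share was 7.08% for 8 cone genes, 19.0% for 12 bipolar genes and 19.9% for 12 Müller glia genes in WT, and 2.52%, 17.4% and 7.36% in the Ezh2-cKO-labelled libraries. The bipolar list holds Otx2, which photoreceptors also express, and without it, a choice made after its level was seen, the bipolar share was 8.84% in WT and 4.80% in the Ezh2-cKO-labelled libraries. For the remaining lists the WT share ran from 5.02% for horizontal cell genes over 17.2% for endothelial, 17.6% for ganglion cell and 20.5% for microglia genes to 90.3% for amacrine genes, and in the Ezh2-cKO-labelled libraries from 2.41% for horizontal cell to 31.7% for amacrine genes. The shares of Nxph1, Nxph3 and Nrxn2 in WT lay below all of these, and those of Nlgn3 and Nlgn1 above the horizontal cell share only. In WT the Nxph4 share lay above all but the amacrine share, as did that of Nlgn2. The amacrine share rested mainly on Slc6a9, at 24.1 FPKM in Cd73P WT and 6.46 FPKM in Cd73N WT. Pax6, in contrast, was at 2.51 and 20.4 FPKM. The Müller glia sum in Cd73P WT was mostly Car2, at 163 FPKM there and 187 FPKM in Cd73N WT. These genes were looked up after the shares were seen. The part of carried-over cells in the Cd73P values was not tested.

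The next question was how the genes differ between genotypes in Cd73N cells. Past 1.5-fold, 3 of the 9 genes were lower in the Ezh2-cKO-labelled library, all of them neurexophilins, and 1 was higher, a neuroligin. Of all 21701 genes compared, 1.71% were lower and 7.18% were higher. Because the contrast was used to choose the group, nothing is read from the comparison of these shares. The median log2 difference was -0.080 over the 9 genes and 0.00 over all genes.

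Nxph1 was at 19.5 FPKM in Cd73N WT and at 1.85 ± 0.16 FPKM in the Ezh2-cKO-labelled Cd73N library, a plain ratio of 10.5-fold lower and a log2 difference of -2.85 with a counting SE of 0.096. The values rest on an implied 840 and 126 fragments. Among 6845 genes with a level of at least 10 FPKM in either library it had rank 3 in size of fall, behind 2 genes on chromosome Y. The next gene, outside the group, was Irx6, which encodes an Iroquois homeobox factor, with a log2 difference of -2.67.

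Nxph3 was at 24.8 FPKM in Cd73N WT and at 13.1 ± 0.46 FPKM in the Ezh2-cKO-labelled library, 1.89-fold lower with a log2 difference of -0.87 (SE 0.058). Nxph4 was at 25.5 FPKM in WT and 11.5 ± 0.47 FPKM in the Ezh2-cKO-labelled library, 2.22-fold lower with a log2 difference of -1.08 (SE 0.066). The fourth gene of the family, Nxph2, was listed at 0 in WT and at 0.053 FPKM, from an implied 9.23 fragments, in the Ezh2-cKO-labelled library. The 3 neurexophilins with a measurable level were all lower, the widest margin, that of Nxph1, being fixed by the choice of the group. Their summed level was 69.8 FPKM in WT and 26.5 FPKM in the Ezh2-cKO-labelled library. The sum includes Nxph1, so its fall and the shares within it are fixed in part by the choice of the group. Within that sum the share of Nxph1 was 27.9% in WT and 6.98% in the Ezh2-cKO-labelled library, while that of Nxph3 was 35.5% and 49.4% and that of Nxph4 36.6% and 43.4%. The shares of Nxph3 and Nxph4 were thus higher although the levels of both genes were lower. The deposited upper bound lay below the WT value of all 3 genes, and with the midpoints of the bounds in place of FPKM their log2 differences were -2.78, -0.85 and -1.06.

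The neurexins, to which some neurexophilins bind, differed less. Nrxn3 was at 50.5 FPKM in Cd73N WT and 36.4 ± 0.39 FPKM in the Ezh2-cKO-labelled library. This is a log2 difference of -0.46 (SE 0.021), beyond counting error and within the 1.5-fold threshold. Nrxn2 was at 17.5 and 17.2 FPKM, a log2 difference of -0.025 (SE 0.035) that turned positive when libraries were scaled by their median ratio or by their FPKM sum. The gene tables do not separate the long alpha from the short beta transcripts of a neurexin gene. The binding of neurexophilins is to the product of the former.

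Among the neuroligins, Nlgn1 was at 9.36 FPKM in Cd73N WT and at 16.6 ± 0.35 FPKM in the Ezh2-cKO-labelled library, 1.77-fold higher with a log2 difference of 0.76 (SE 0.046). Nlgn2 was at 32.9 and 31.0 FPKM, a log2 difference of -0.080 (SE 0.030) whose sign changed under scaling by the FPKM sum. Nlgn3, a gene on chromosome X, was at 5.31 and 5.45 FPKM, with bounds that overlapped. The summed neuroligin level was 47.5 FPKM in WT and 53.1 FPKM in the Ezh2-cKO-labelled library, and the share of Nlgn1 in it was 19.7% and 31.2%.

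**Figure D2:**
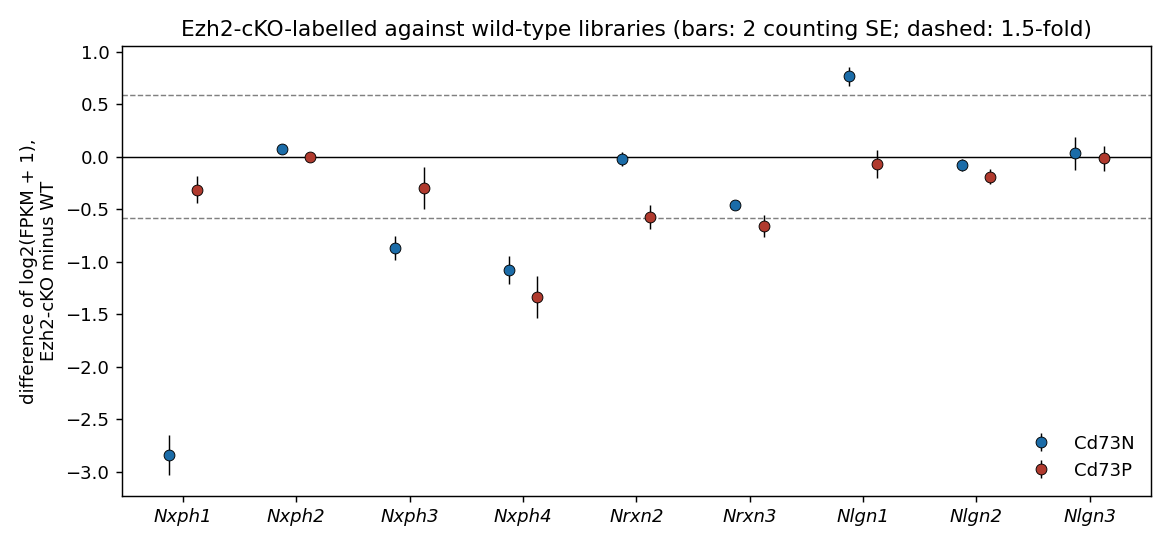
Difference of log2(FPKM + 1), libraries labelled Ezh2-cKO minus WT, for each gene in Cd73N and in Cd73P, with bars of 2 counting SE and dashed lines at 1.5-fold. Nxph1, Nxph3 and Nxph4 lie below the lower line in Cd73N, Nxph4 and Nrxn3 lie below it in Cd73P, and Nlgn1 alone lies above the upper line, in Cd73N.

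Markers of several cell types moved between the same Cd73N libraries. The 12 bipolar genes summed to 2899 FPKM in WT and 1696 FPKM in the Ezh2-cKO-labelled library, 58.5% of the WT level, with 8 of 12 lower past 1.5-fold and 0 higher. The 12 Müller glia genes summed to 1416 and 6417 FPKM, all 12 being higher. The 8 cone genes summed to 3792 and 5331 FPKM with 3 higher, and the 8 of 10 amacrine genes measured summed to 32.7 and 78.8 FPKM with 2 higher, Chat lying under 0.1 FPKM in both. The amacrine sum rested mainly on Pax6, at 20.4 and 63.5 FPKM. The 8 ganglion cell genes summed to 15.7 and 42.0 FPKM with 2 higher and 1 lower, and most of the sum was Thy1 in the Ezh2-cKO-labelled library (6.52 and 30.3 FPKM). The 6 horizontal cell genes summed to 94.0 and 63.8 FPKM with 0 past the threshold, nearly all of it Prox1 (92.7 and 61.9 FPKM), and Lhx1 and Gja10 lay under 0.1 FPKM. The 6 microglia genes summed to 75.7 and 110 FPKM with 3 higher. The 6 endothelial genes summed to 54.0 and 109 FPKM with 1 higher, Kdr at 22.6 and 86.2 FPKM, and 1 lower, Esam at 23.9 and 13.3 FPKM. Of the 9 rod genes, 5 were lower and 0 higher with a median log2 difference of -0.78, although their sum was 1283 and 1333 FPKM. Nxph3 and Nxph4 were at 52.8% and 45.1% of their WT level and Nxph1 at 9.50%. The part of cell composition in the neurexophilin and Nlgn1 differences was not tested.

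In Cd73P cells, 2 of the 9 genes were lower past 1.5-fold in the Ezh2-cKO-labelled library and 0 were higher, against 2.38% lower and 2.26% higher of 21702 genes. The median log2 difference was -0.30 over the 9 genes and 0.00 over all genes. Only 3 of the 9 genes reached 1 FPKM in 1 of these libraries. Of all 10679 genes that did, 460 were higher and 484 lower.

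Nxph4 was at 12.4 FPKM in Cd73P WT and at 4.30 ± 0.29 FPKM in the Ezh2-cKO-labelled Cd73P library, 2.88-fold lower with a log2 difference of -1.34 (SE 0.099). It was the one gene of the 9 that was lower past 1.5-fold in both fractions at a pseudocount of 1, whereas with a pseudocount of 0.1 Nxph1 (-1.68 in Cd73P) and Nxph3 (-0.82) were so as well. Nrxn3 was at 5.19 and 2.92 ± 0.10 FPKM, 1.78-fold lower with a log2 difference of -0.66 (SE 0.051), and fell inside the threshold with a pseudocount of 5 (-0.36). Just inside the threshold was Nrxn2 at 0.87 and 0.26 FPKM, a log2 difference of -0.58 (SE 0.057). It passed the threshold under scaling by the FPKM sum (-0.59) and with a pseudocount of 0.1 (-1.45), and its plain ratio, 3.41-fold lower, was larger than that of Nxph4. Nlgn2, the highest of the group in this fraction, was at 28.1 and 24.4 ± 0.44 FPKM, a log2 difference of -0.19 (SE 0.035).

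The remaining genes were below 1 FPKM in both Cd73P libraries. Nxph3 was at 0.59 and 0.29 FPKM, and Nlgn1 at 0.55 and 0.48 FPKM and Nlgn3 at 0.28 and 0.26 FPKM had overlapping bounds. Nlgn1 rested on an implied 111 and 105 fragments and Nlgn3 on 50.2 and 51.7. Nxph1 was at 0.26 FPKM in WT, from an implied 22.7 fragments, and at 0.013 FPKM in the Ezh2-cKO-labelled library, from an implied 1.45 fragments, so no fold is given for it. The summed neurexophilin level in Cd73P was 13.3 FPKM in WT and 4.61 FPKM in the Ezh2-cKO-labelled library, of which Nxph4 held 93.6% and 93.4%. Nlgn2 held 97.1% and 97.0% of the summed neuroligin level in the same libraries.

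Bipolar markers were also lower between these Cd73P libraries, from 550 to 295 FPKM in sum. This was 53.7% of the WT level, with 9 of 12 genes lower past 1.5-fold and 0 higher. Without Otx2, a choice made after its level was seen, the sum was 222 FPKM in WT and 70.6 FPKM in the Ezh2-cKO-labelled library, 31.8% of the WT level. Horizontal cell genes stood at 32.5% of their WT sum (4.72 and 1.54 FPKM) and ganglion cell genes, all below 1 FPKM, at 65.1%. Endothelial genes stood at 84.1%, amacrine genes at 84.7% and microglia genes at 128%. The cone sum was 268 and 134 FPKM, the Müller glia sum 281 and 472 FPKM, and the sum of the 9 rod genes 15245 and 21290 FPKM. Nxph4 stood at 34.7% and Nrxn3 at 56.2% of their WT level. The part of these cell types in the Nxph4 and Nrxn3 differences was not tested.

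**Figure D3:**
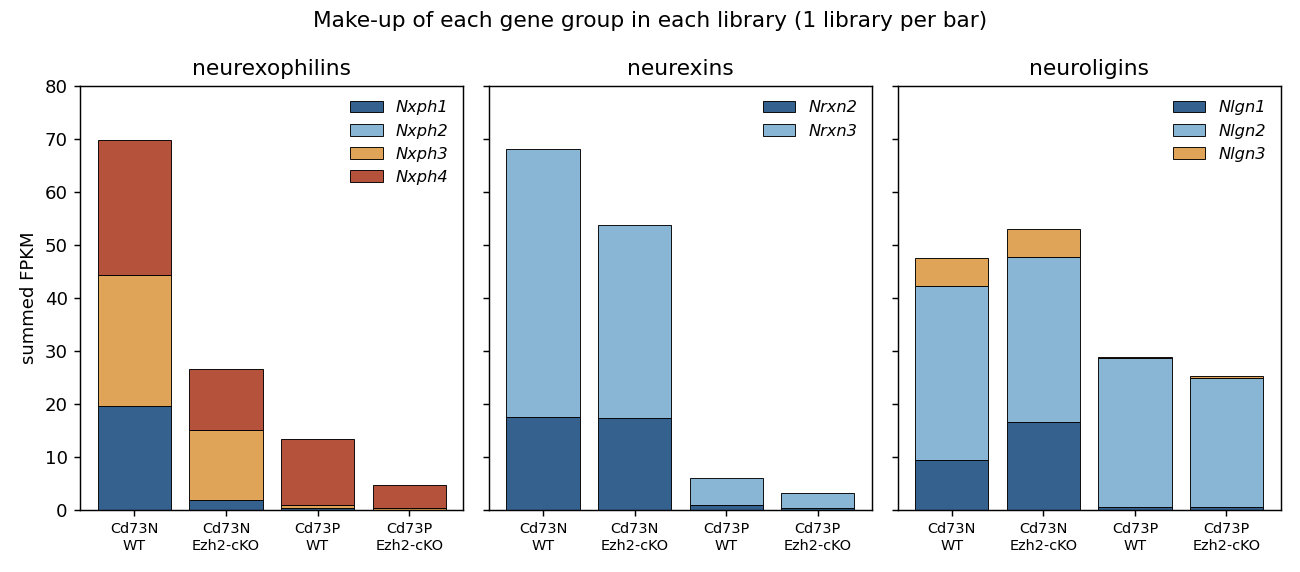
Summed FPKM of the neurexophilins, neurexins and neuroligins in each library, with the part of each gene in a colour of its own. The neurexophilin sum goes from 69.8 to 26.5 FPKM between the Cd73N libraries. It includes Nxph1, on whose fall the group was chosen. The Cd73P bars consist mostly of Nxph4, Nrxn3 and Nlgn2.

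To place the group among the genes that work with it, 52 partner genes were followed, of which 32 encode further ligands or binding partners of neurexins and neuroligins and 20 encode scaffold proteins inside the cell. In Cd73N, 7 of the 32 ligand and partner genes were higher and 4 were lower past 1.5-fold in the Ezh2-cKO-labelled library, where 7.18% of all genes were higher and 1.71% lower. Among those with at least 1 FPKM in 1 of the 2 libraries, 7 of 27 were higher and 4 lower. Of all 12843 such genes, 1491 were higher and 368 lower. The median log2 difference of the 32 genes was 0.15 against 0.00 over all genes. Scaling by the median ratio or the FPKM sum gave 8 higher and 2 lower. The genes with the greatest differences upward were C1ql4, Flrt2 and C1ql2. C1ql4, a secreted C1q-like protein, was listed at 0 in WT and at 6.95 FPKM in the Ezh2-cKO-labelled library. Flrt2, an adhesion protein that binds latrophilins, was at 1.28 and 5.82 FPKM, and C1ql2, another C1q-like protein, at 0.53 and 2.59 FPKM. Those downward were Clstn3 (64.9 and 36.9 FPKM), a calsyntenin, and Mdga2 (12.2 and 6.74 FPKM), which binds neuroligins and blocks their contact with neurexins. Next came Grid1 (24.2 and 15.4 FPKM), a delta-type glutamate receptor subunit, and Igsf21 (122.5 and 81.3 FPKM), an immunoglobulin-domain protein that binds neurexins. The log2 differences of Grid1 (-0.62) and Igsf21 (-0.59) were close to the threshold and fell inside it under either scaling, to -0.56 and -0.53 by the median ratio and to -0.47 and -0.44 by the FPKM sum.

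Of the 20 scaffold genes, 2 were higher and 0 lower in Cd73N, with a median log2 difference of -0.10. The larger difference was that of Epb4.1l2, which links membrane proteins to the cytoskeleton, at 45.2 and 104.8 FPKM. The other was Magi3, a membrane-associated guanylate kinase, at 4.81 and 9.36 FPKM. Among those inside the threshold, Dlg4, which encodes the PSD-95 scaffold bound by neuroligins, was at 128 and 110 FPKM, and Gphn, the gephyrin scaffold of inhibitory synapses, at 23.8 and 21.4 FPKM. Cask, which binds the tail of neurexins, was at 20.6 and 14.3 FPKM. Magi3 and these last 3 genes were picked after the values were known.

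In Cd73P, 0 of the 32 ligand and partner genes were higher and 6 were lower, where 2.26% of all genes were higher and 2.38% lower. The median log2 difference of the 32 genes was -0.10. Among those with at least 1 FPKM in 1 of the 2 libraries, 4 of 12 were lower. Of all 10679 such genes, 460 were higher and 484 lower. Igsf21 was at 17.6 FPKM in WT and 4.24 FPKM in the Ezh2-cKO-labelled library, a log2 difference of -1.83 (SE 0.085). Grid1, named here after its value was seen, was at 1.15 and 0.23 FPKM, a log2 difference of -0.81 (SE 0.080). Both were lower past 1.5-fold in both fractions without scaling, and in Cd73P under either scaling also. C1ql1 was at 1.36 and 0.20 FPKM in Cd73P and, in contrast, at 2.13 and 4.93 FPKM in Cd73N. Of the 20 scaffold genes 0 were higher and 2 lower, namely Lin7a at 3.87 and 1.03 FPKM and Magi1 at 7.06 and 2.78 FPKM. Lin7a encodes a PDZ protein that forms a complex with Cask, and Magi1 is of the same family as Magi3.

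**Figure D4:**
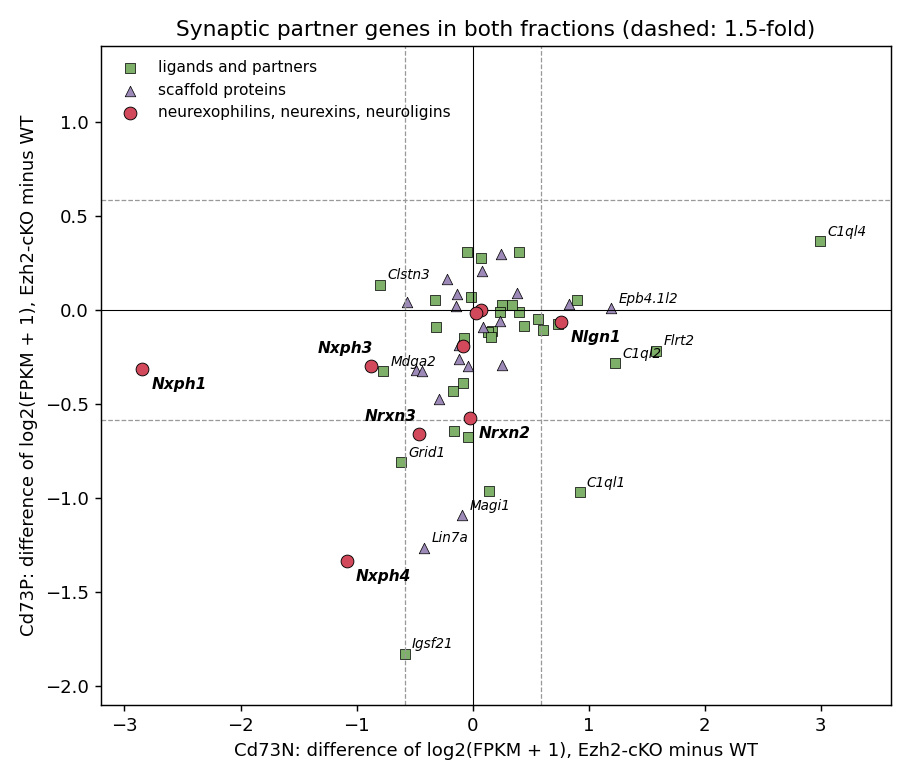
Difference of log2(FPKM + 1), libraries labelled Ezh2-cKO minus WT, in Cd73N (horizontal axis) and Cd73P (vertical axis), for the 9 genes and 52 partner genes, with dashed lines at 1.5-fold. Nxph1, on whose fall the group was chosen, lies farthest to the left at -2.85. Nxph4, Grid1 and Igsf21 lie lower left, past both lines, the last 2 close to the Cd73N line.

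Lastly, the genes whose levels followed that of Nxph1 most closely over the 4 libraries were identified. Likeness was measured as the distance between profiles of log2(FPKM + 1) centred on each gene's mean, among 7621 genes with at least 10 FPKM in 1 library. The 5 nearest were Slit2 (distance 0.54), a secreted axon guidance protein, Tacr3 (0.57), a neurokinin receptor, Irx6 (0.79), Tnnc1 (0.91), a troponin C, and Tle6 (1.06), a Groucho-family corepressor. Slit2 was at 27.0, 5.46, 1.11 and 0.54 FPKM in Cd73N WT, Cd73N Ezh2-cKO, Cd73P WT and Cd73P Ezh2-cKO, and Tacr3 at 16.5, 3.17, 0.28 and 0.024 FPKM. All 5 had their highest level in Cd73N WT and their second highest in the Ezh2-cKO-labelled Cd73N library, as Nxph1 had. This follows from picking them by likeness to Nxph1 and is not a finding. Within the group itself Nxph3 (distance 1.70, rank 92) and Nrxn3 (1.75, rank 128) came closest, followed by Nrxn2 (2.17), Nxph4 (2.19), Nlgn1 (2.59) and Nlgn2 (3.16, rank 4244). With 4 libraries this order is a description of the profiles and no more.

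**Figure D5:**
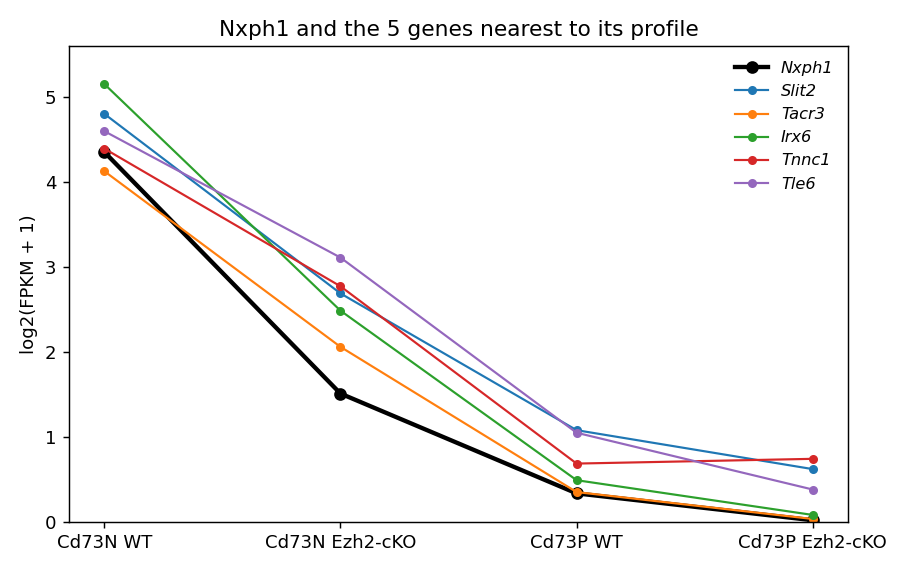
Level of Nxph1 and of the 5 genes with the nearest profile in each library, as log2(FPKM + 1). In all 6 genes the level is highest in Cd73N WT, lower in the Ezh2-cKO-labelled Cd73N library and lowest in the Cd73P libraries. The 5 genes were picked for likeness to Nxph1, so the shared order follows from the choice.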

How the data were processed

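RNA of sorted cells was sequenced as 36-base single-end reads. The authors aligned the reads to mm9 with TopHat 2.0.8b (coverage search, at most 50 alignments kept per read), and FPKM came from Cufflinks 2.1.1 at default settings. The deposited tables give FPKM with lower and upper bounds and a status for 23021 gene rows per library, not scaled between libraries. Total read numbers are not given in them, so absolute depth is unknown. Relative depth inferred from the bounds was 1.00 to 1.16.

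Here rows sharing a symbol were summed (251 symbols) and 731 small RNA symbols were left out, which gave 21827 genes. A comparison used genes with an OK status in both of its libraries. Starts are given with 1 added. The window before Nxph4 is not reported here. Counting SE were computed from the deposited bounds, whose width was taken as 4 SE, and cover counting error within a library only. The implied fragment number is the square of FPKM over its SE. The deposited upper bound was below FPKM itself in 5 of the 36 values of the group, namely Nxph1, Nxph3 and Nxph4 in Cd73N WT and Nxph4 and Nlgn2 in the Ezh2-cKO-labelled Cd73N library, as it was in 2674 to 3600 gene rows of each library. Values were compared as log2(FPKM + 1) with a 1.5-fold threshold in Python 3.11.15 with pandas 2.3.3. Scripts were tested on simulated data.

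Named genes were the group, label checks, the 5 profiles nearest to Nxph1, the next largest fall after Nxph1 and, among partner genes past the threshold with an FPKM of at least 1, the 4 largest differences each way. The members and lists were chosen with earlier results of these data known. Alternatives were pseudocounts of 0.1 and 5, scaling by the median ratio or FPKM sum, a 2-fold threshold, a minimum FPKM of 1, a ratio without pseudocount and bounds that do not overlap. Midpoints of the bounds, the scaling of partner genes, a bipolar list without Otx2 and a rod list of the 9 genes with an OK status in all 4 libraries were chosen once the data had been seen.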

Additional observations from a re-analysis of the deposited data

Results flagged for a closer look

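Differences of opposite sign in the fractions were found for Nlgn1, with log2 differences of 0.76 in Cd73N and -0.068 in Cd73P, and for Nlgn3, with 0.032 in Cd73N and -0.017 in Cd73P, the latter 0.022 when centred on the median ratio. With 1 library behind each value, the difference between fractions was not tested. Both Cd73P values of Nlgn1 lay below 1 FPKM, and all 3 values other than the Cd73N value of Nlgn1 lay within 2 counting SE of 0.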

How the results depend on the processing

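With a pseudocount of 0.1, 2 genes of the group were higher in Cd73N and 5 were lower in Cd73P between genotypes. With a pseudocount of 5, 1 was lower in Cd73P. Scaling by the FPKM sum gave 3 lower in Cd73P. A 2-fold threshold left 0 higher in Cd73N and 1 lower in Cd73P. Without a pseudocount 2 genes were lower in Cd73P than in Cd73N in each genotype, since that ratio needs 1 FPKM in both libraries and most of the group had less in Cd73P. The gene added in Cd73N by the pseudocount of 0.1 was Nxph2, at 0 and 0.053 FPKM. Those added in Cd73P were Nxph1, Nxph3 and Nrxn2, all below 1 FPKM in both libraries. The gene lost in Cd73P with the pseudocount of 5 was Nrxn3. The number lower in Cd73N was 3 under every alternative run except the 2-fold threshold, where it was 2. The log2 difference of Nxph1 in Cd73N ran from -3.40 without a pseudocount to -1.84 with a pseudocount of 5. Of 260 single-gene values under alternatives, 173 stayed within their counting error, 87 moved beyond it and 0 of those past 1.5-fold changed sign. The 260 include values under the minimum FPKM and under bounds that do not overlap. Those settings only filter genes, so their values could not move and count among the 173. Scaling by the median ratio or FPKM sum shifted the difference between fractions by 0.30 and 0.37 in WT and by 0.24 and 0.19 in the Ezh2-cKO-labelled libraries, and that between Cd73N genotypes by 0.13 under the FPKM sum, so Nlgn2 was higher in Cd73P WT than in Cd73N WT after either (0.078 and 0.18). With a pseudocount of 5, 4 of the 5 nearest profiles were the same genes. No paired analysis was possible because each group held 1 library. Depth limits Nxph1 in Cd73P, with an implied 22.7 and 1.45 fragments, and Nxph2.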
